A study of Mus musculus with 2 samples.

Results

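The miR-302/miR-367 cluster is a row of 5 microRNA (miRNA) hairpins, Mir302b, Mir302c, Mir302a, Mir302d and Mir367. The members were taken by symbol and position, and all 5 were found among the 1973 genes counted in the embryonic mouse forebrain. They lie on the plus strand of chromosome 3 within 580 bp, from 127545228 to 127545807 in mm10. Small RNA was sequenced from forebrain of B6NCrl embryos at 10.5 days, with males and females pooled and no treatment or mutation named. The samples form 1 group of 2 libraries, replicate 1 from a pool of 69 embryos and replicate 2 from a pool of 51. The labels number them as biological replicates of separate biosamples. Reads counted on the strand of their gene numbered 3256070 in replicate 1 and 3574530 in replicate 2. Whole forebrain was sequenced, so reads cannot be given to the neuroepithelium or to any other cell type, and more cells of a type cannot be told apart from more RNA per cell.

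A miRNA hairpin is cut from a longer transcript and then trimmed to a short duplex, whose 2 arms are named 5p and 3p. The arm that is loaded into an Argonaute protein pairs with target mRNAs mainly through its seed, bases 2 to 8. The miR-302/miR-367 hairpins are made from 1 shared transcript. They are best known from pluripotent stem cells and the early embryo, where the miR-302 seed represses inhibitors of the cell cycle. In the mouse embryo the cluster is also active in the early neural tube, and its loss disturbs neural tube closure and the timing of neural differentiation. The reads here were counted per hairpin, so the arms cannot be separated.

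The mature sequences are shown first because they decide which miRNAs share a seed with the cluster. RefSeq (build GRCm38.p6) gave a hairpin for 5 of the 5 members and 9 mature sequences, printed 5′ to 3′ with the seed in capitals, while miR-302a-3p is named only.
miR-302b-3p: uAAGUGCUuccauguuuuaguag
miR-302c-3p: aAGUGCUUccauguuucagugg
miR-302d-3p: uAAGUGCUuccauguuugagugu
miR-367-3p: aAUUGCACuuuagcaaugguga
miR-302b-5p: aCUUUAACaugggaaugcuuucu
miR-302c-5p: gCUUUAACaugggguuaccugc
miR-302a-5p: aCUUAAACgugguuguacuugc
miR-302d-5p: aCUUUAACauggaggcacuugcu
miR-367-5p: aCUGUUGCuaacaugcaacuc

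The 3p arms of Mir302b, Mir302c and Mir302d share a run of 16 bases, aagugcuuccauguuu. In miR-302b-3p and miR-302d-3p this run starts at base 2, and these arms have the seed AAGUGCU. In miR-302c-3p the annotated 5′ end lies 1 base further on, so the same run starts at base 1 and the seed reads AGUGCUU. The first 17 bases of miR-302b-3p and miR-302d-3p are identical, and only reads that reach past them can be given to one of these loci. Reads with several mapping places made up 30.1% of all reads in replicate 1 and 28.8% in replicate 2, and no gene received them. How many of them came from this cluster was not tested. The 5p arms of Mir302b, Mir302c and Mir302d share the seed CUUUAAC, whereas miR-302a-5p has CUUAAAC. The 3p arm of Mir367 shares at most 5 bases in a row with the 3p arms of Mir302b, Mir302c and Mir302d. Its 5p arm shares a run of 7, uaacaug, with their 5p arms, which is longer than the 4 that miR-302a-5p shares with miR-302b-5p or miR-302c-5p.

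Of the miRNAs outside the cluster, the following carry the same seed as a member or one shifted by 1 base. The arms of Mir291a and Mir294, from the miR-290 cluster known from embryonic stem cells, have the seed of miR-302b-3p. The arms of Mir17 and Mir20a have the shifted seed, and those of Mir25, Mir92b and Mir363 have the seed of miR-367-3p.
miR-291a-3p: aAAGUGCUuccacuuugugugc
miR-294-3p: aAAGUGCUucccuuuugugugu
miR-17-5p: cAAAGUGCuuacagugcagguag
miR-20a-5p: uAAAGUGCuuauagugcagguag
miR-25-3p: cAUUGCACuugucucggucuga
miR-92b-3p: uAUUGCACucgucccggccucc
miR-363-3p: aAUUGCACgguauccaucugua

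Mir302a, Mir302d, Mir302b and Mir302c were abundant and Mir367 was rare. Levels are given as CPM, a gene's reads scaled to the sum of all reads counted on the strand of a gene in that library. Mir302a (ENSMUSG00000065552.1, 127545496 to 127545564) had 28360 reads in replicate 1 and 39127 in replicate 2, or 8710 and 10946 CPM. Mir302d (ENSMUSG00000065447.1, 127545624 to 127545689) had 23336 and 30525 reads, or 7167 and 8540 CPM. Mir302b (ENSMUSG00000076252.1, 127545228 to 127545301) had 17520 and 22876 reads, or 5381 and 6400 CPM. All of these levels were higher in replicate 2.

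Mir302c (ENSMUSG00000065482.1, 127545363 to 127545430), the hairpin whose annotated 3p arm is offset by 1 base, had 3333 and 4790 reads, or 1024 and 1340 CPM. Mir367 (ENSMUSG00000065413.2, 127545733 to 127545807) had 30 reads in replicate 1 and 42 in replicate 2, or 9.21 and 11.7 CPM. Its exact 95% Clopper-Pearson intervals, which cover counting error only, ran from 6.22 to 13.2 and from 8.47 to 15.9 CPM. These intervals overlap, and the counts lie well above the 3 reads that a count of 0 would allow.

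The order of the mean levels was Mir302a (9828 ± 1581 CPM), Mir302d (7853 ± 971), Mir302b (5890 ± 721), Mir302c (1182 ± 224) and Mir367 (10.5 ± 1.79; SD, n = 2). Both libraries gave this order. The lower library of each hairpin lay above the higher library of the next, although the means of Mir302a and Mir302d lie less than the sum of their SDs apart. Among all 1973 genes these levels ranked 26, 32, 42, 104 and 321. The hairpins are 66 to 75 bp long. Per base of hairpin the mean levels were 142, 119, 79.6, 17.4 and 0.140 CPM, which is the same order.

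**Figure D1:**
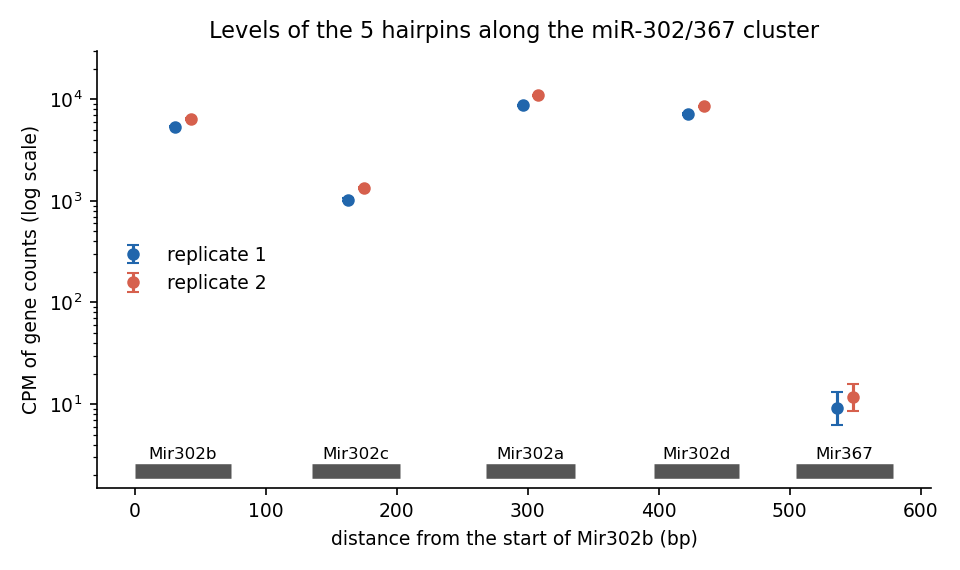
Level of each hairpin in CPM (log axis) against its distance from the start of Mir302b in bp, with replicate 1 in blue, replicate 2 in red and exact 95% counting intervals as bars. Bars at the foot mark the hairpins; Mir367, at the downstream end, sits at 9.21 and 11.7 CPM while Mir302d beside it has 7167 and 8540.

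The order of the levels did not follow position along the cluster. The gaps between neighbouring hairpins are 61, 65, 59 and 43 bp, and the smallest gap separates Mir302d from Mir367. Mir302d exceeded Mir367 by 778-fold in replicate 1 (exact 95% interval 545 to 1153) and by 727-fold in replicate 2 (538 to 1009). Their hairpins are printed here with both annotated arms in capitals, since neighbours 43 bp apart differed this much in reads.
Mir302d, chr3:127545624-127545689, plus strand, GRCm38.p6: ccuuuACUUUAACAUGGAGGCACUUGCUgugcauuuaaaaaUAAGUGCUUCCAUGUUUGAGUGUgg
Mir367, chr3:127545733-127545807, plus strand, GRCm38.p6: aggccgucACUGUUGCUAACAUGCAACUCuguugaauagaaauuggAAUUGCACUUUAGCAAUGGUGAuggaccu

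The folds between members kept their direction in both pools, and some differed in size beyond the counting error. Mir302a exceeded Mir367 by 945-fold in replicate 1 and 932-fold in replicate 2, with wide counting intervals (662 to 1401 and 689 to 1293) because Mir367 had few reads. It exceeded Mir302c by 8.51-fold (8.21 to 8.82) and 8.17-fold (7.93 to 8.42), and Mir302d by 1.22-fold (1.19 to 1.24) and 1.28-fold (1.26 to 1.30). Mir302d exceeded Mir302b by 1.33-fold in each (1.31 to 1.36). Folds over Mir302c were larger in replicate 1. That of Mir302d had an interval of 6.75 to 7.26 in replicate 1 and of 6.18 to 6.57 in replicate 2. That of Mir302b was 5.26 (5.07 to 5.46) in replicate 1 and 4.78 (4.63 to 4.93) in replicate 2. The intervals of the libraries did not overlap for these pairs or for Mir302a over Mir302d. Nor did they for Mir302a over Mir302b (1.59 to 1.65 and 1.68 to 1.74). They overlapped for the other pairs given here.

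The cluster as a whole held 2.23% of the gene counts in replicate 1 (72579 reads) and 2.72% in replicate 2 (97360 reads). Of all reads, unmapped ones included, it held 0.848% and 1.01%. Mir302a made up 39.1% of the cluster's reads in replicate 1 (exact interval 38.7 to 39.4) and 40.2% in replicate 2 (39.9 to 40.5). Mir302d made up 32.2% and 31.4%, and Mir302b 24.1% and 23.5%. The share of Mir302c was 4.59% and 4.92% and that of Mir367 0.0413% and 0.0431%. For Mir302a and Mir302c the share was higher in replicate 2 and for Mir302b and Mir302d in replicate 1, and for each of them the intervals of the libraries did not overlap. The SD between libraries was at most 0.79 percentage points, that of Mir302a.

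**Figure D2:**
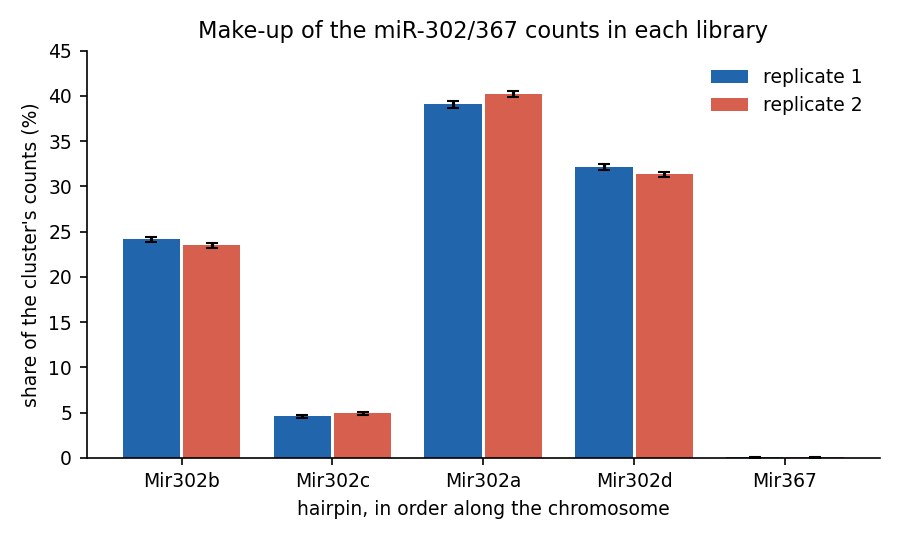
Share of the cluster's reads in percent for each hairpin, in chromosome order, in replicate 1 (blue) and replicate 2 (red), with exact 95% counting intervals. Mir302a leads with 39.1% and 40.2%, and the bars of Mir367 (0.0413% and 0.0431%) are too low to see.

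The reads came from the annotated strand. No read lay on the opposite strand of any member in either library, against 72579 and 97360 on the strand of the hairpins, which allows up to 0.00413% and 0.00308% of the cluster's reads there. Over all genes 96.7% and 96.4% of reads were on the strand of the gene. Such an absence was common. Among genes with at least 100 reads, 250 of 269 in replicate 1 and 249 of 272 in replicate 2 also had no opposite-strand read. Larp7, which encodes a protein that binds the 7SK RNA, runs across the cluster on the minus strand. The hairpins overlap none of its exons in the 2 annotated transcripts that span them, and lie in intron 8 of its transcript of 13 exons. That intron is 1547 bp long, with 949 bp between its downstream exon and Mir302b, and 18 bp between Mir367 and its upstream exon. The level of Larp7 itself was not analysed here.

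All 5 members were lower in the pool of 69 embryos than in the pool of 51. Ratios divide replicate 1 by replicate 2 and are given as log2 values, with TMM scaling of the library sizes and a pseudocount of 0.5 counts. An exact binomial test, two-sided, was run on the 401 genes whose mean count reached 10, with the expected split set by the scaled library sizes. Its error is that of counting alone, and what it compares is 1 library with the other, not a condition. Mir302a lay at −0.36 (exact 95% interval −0.38 to −0.34, adjusted p = 2.05e-225, exact binomial test with Benjamini-Hochberg adjustment). Mir302c lay at −0.42 (−0.48 to −0.36, adjusted p = 2.49e-37, exact binomial test). Mir302d and Mir302b both lay at −0.28 (−0.31 to −0.26 and −0.31 to −0.25, adjusted p = 2.02e-112 and 5.46e-83, exact binomial test). The intervals of Mir302a and Mir302c lay wholly below those of Mir302b and Mir302d. Mir367, with 30 and 42 reads, lay at −0.38 with an interval from −1.11 to 0.33 that includes 0, and did not pass the test (adjusted p = 0.46, exact binomial test).

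Thus 4 of 5 members passed the test as lower in replicate 1, where 23.7% of the 401 genes tested did so and 19.7% were higher. The median ratio of the members was −0.36, and that of all tested genes was −0.03. In linear terms the cluster sum was 1.25-fold higher in replicate 2. Of the 401 ratios, 40 were lower than that of Mir302a, 28 than that of Mir302c, 60 than that of Mir302d, 61 than that of Mir302b and 37 than that of Mir367. Among genes of a like level a lower ratio was rare for the miR-302 hairpins and more frequent for Mir367. Within 1 log2 unit of Mir302a in mean level there were 33 genes outside the cluster, of which 1 had a lower ratio. The same count was 1 of 58 for Mir302c, 2 of 37 for Mir302d, 2 of 41 for Mir302b and 14 of 79 for Mir367.

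No member stood apart once the spread between these libraries over all genes was taken as the error. With that common dispersion, a biological coefficient of variation of 14.0%, the exact test of edgeR called 0 of the 5 members, and 0 at an unadjusted p of 0.05. It called 4 of the 401 genes after adjustment and 22 before. The dispersion comes from the same 2 libraries, so this describes the spread and is no test of a condition.

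**Figure D3:**
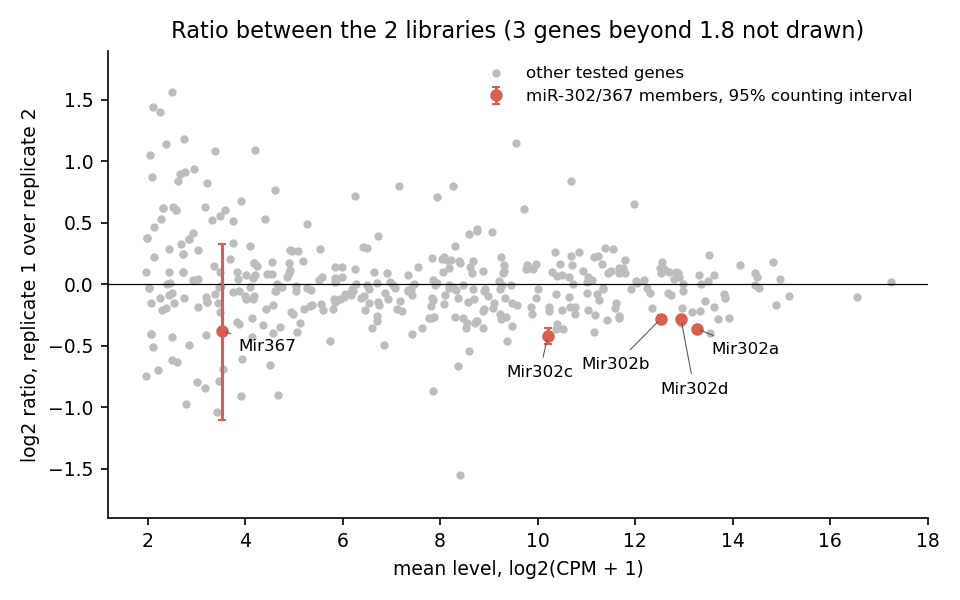
Log2 ratio of replicate 1 over replicate 2 against the mean level, log2(CPM + 1), for the tested genes (grey), with the 5 members in red and their exact 95% counting intervals; 3 genes beyond 1.8 on the ratio axis are not drawn. The members lie between −0.42 and −0.28, at the lower edge of genes of like level, while Mir367 sits where ratios scatter widely.

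Other miRNA lists were counted between the same pools by the same exact binomial test, which called 19.7% of all tested genes higher and 23.7% lower in replicate 1. None of their calls held with the dispersion between the libraries as the error. By the exact test of edgeR 0 of the 71 tested genes on these lists passed after adjustment and 7 at an unadjusted p of 0.05, of which let-7 genes made up 5. The let-7 family, whose mature forms build up during differentiation, went the opposite way. Of its 9 tested genes 6 were higher in replicate 1 and 0 lower, and its summed level was 7950 CPM in replicate 1 and 4770 in replicate 2. Mirlet7g had 4979 and 3097 CPM and Mirlet7i 2122 and 1159 CPM. The cluster sum therefore exceeded the let-7 sum by 2.80-fold in replicate 1 and 5.71-fold in replicate 2. Of the 10 let-7 genes counted, 5 are of several loci, so the let-7 sum is a lower limit and the folds over it may be too high. Mirlet7e and Mirlet7f-1 were listed but not found by symbol.

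In the neural progenitor list 9 of 11 genes were higher and 0 lower in replicate 1, where 19.7% of all tested genes were higher. Mir130a passed at a ratio of only 0.04 with 106465 and 111288 reads, so these calls also depend on depth. The list summed to 112095 and 100942 CPM. These sums are 5.03-fold and 3.71-fold that of the cluster. The list was led by Mir130a (32697 and 31134 CPM) and Mir99a (31196 and 26882 CPM), and 6 of its genes are of several loci. Among those, Mir9-3 and Mir9-2 had mean levels of only 339 and 5.58 CPM, and Mir9-1 was listed but not found by symbol. Mir92b is also counted among the genes with the seed of miR-367-3p. The sum of this list is therefore not a measure of neural progenitors alone. Of the neuronal list 4 of 12 tested genes were higher and 0 lower, with 1062 and 871 CPM in sum. Its median ratio was 0.01, 5 of the 12 ratios lay below 0, and 11 of its 14 genes are of several loci. The most abundant gene on it, Mir137, a miRNA of neurons, had 502 and 359 CPM. Surface epithelium miRNAs were higher for 5 of 7 genes, against 19.7% of all tested genes. They were lower for 0, or for 1 with TMM factors over all genes. Their sum was 10352 and 9076 CPM, led by Mir429 and Mir205. Trunk miRNAs of the Hox clusters had 2 of 5 tested genes lower and 0 higher, a count too small to set against the 23.7% of all genes, with 245 and 309 CPM in sum, led by Mir10a and Mir10b. Mesenchyme miRNAs, led by Mir214 and Mir140, summed to 7845 and 7569 CPM, with 1 of 5 higher and 1 lower, or 2 lower with TMM factors over all genes. The endothelial list, which also holds vessel wall miRNAs, was led by Mir126a and Mir143 and had 32925 and 35270 CPM. Of its 3 genes Mir126a was lower (−0.17) and Mir143 higher (0.20). The erythroid pair Mir451a and Mir144 had 661 and 760 CPM with 1 of 2 lower. No listed gene was at 0 over the 2 libraries. The part of other cell types in the level or the ratio of the cluster was not tested.

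**Figure D4:**
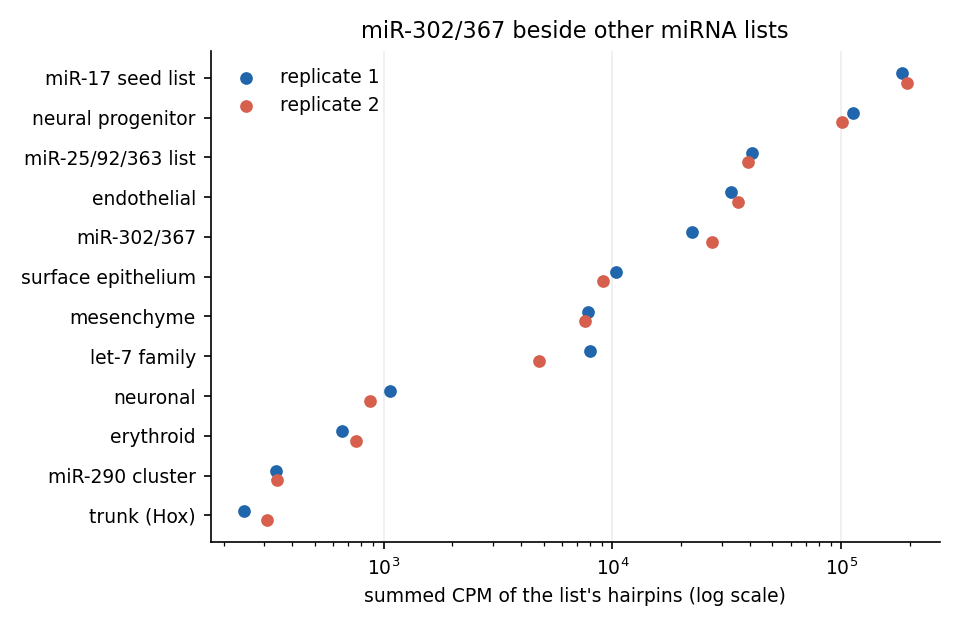
Summed CPM (log axis) of the hairpins of each list in replicate 1 (blue) and replicate 2 (red), in order of the mean. The miR-302/miR-367 cluster, at 22290 and 27237 CPM, lies below the endothelial and above the surface epithelium list, and the let-7 points are the furthest apart.

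Among genes with the 3p seed of Mir302b and Mir302d, as far as their sequences were used here, nearly all reads came from the miR-302/miR-367 cluster. Sums are over hairpins. The other genes with this seed were Mir291a (15.4 and 18.2 CPM), Mir294 (64.5 and 60.7 CPM) and Mir295 (13.3 ± 1.82 CPM, SD, n = 2), all from the miR-290 cluster on chromosome 7. Mir302a, whose 3p sequence was not used here, is in none of these 3p sums. Mir302b and Mir302d held 99.3% of the summed level of these 5 genes in replicate 1 and 99.4% in replicate 2. The whole miR-290 cluster, led by Mir293 and Mir292, had 339 and 342 CPM. The miR-302/miR-367 sum was 65.7-fold that in replicate 1 and 79.5-fold in replicate 2. Of the 6 tested miR-290 genes 0 passed the test in either direction, and their median ratio was −0.15. By the RefSeq entries, no other gene counted here has the seed of miR-302c-3p, or of any member's 5p arm.

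For Mir367 the picture was the reverse. The genes that share the seed of miR-367-3p are Mir92b, Mir92-1, Mir363, Mir92-2, Mir25 and Mir32, several of them from the miR-17-92 cluster and its paralogs. Together with Mir367 they had 40795 CPM in replicate 1 and 39173 in replicate 2, and Mir367 held 0.0226% and 0.0300% of this. Mir92b led with 19407 and 17048 CPM, and Mir363 had 7561 and 8483 CPM. Mir92-1 (10486 and 10272 CPM) and Mir92-2 (1646 and 1545 CPM) are loci of one mature miRNA and their levels are uncertain. Mir25 had 1306 and 1352 CPM, and Mir32, the rarest apart from Mir367, had 379 and 462 CPM. Of the 6 genes beside Mir367, 3 were lower and 1 higher in replicate 1 by the counting test. With the scaling by total counts or by DESeq2 size factors 2 were lower and 3 higher. Of all tested genes 23.7% were lower and 19.7% higher, and 32.5% were lower among those with a mean count of 100 or more. Mir25 passed at a ratio of only −0.08 with 4252 and 4832 reads, so these calls also depend on depth. By the exact test of edgeR 0 of the 6 passed after adjustment and 0 before.

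The miR-17 seed list, known from dividing cells, was more abundant than the cluster. Its 6 genes, Mir17, Mir20a, Mir93, Mir106b, Mir106a and Mir20b, summed to 184776 and 192893 CPM, which is 8.29-fold and 7.08-fold the miR-302/miR-367 sum. Of these genes 5 of 6 were lower in replicate 1 by the counting test, with a median ratio of −0.09. The share over all tested genes was 23.7%, and 32.5% over those with a mean count of 100 or more. No share at a like level was taken for this list. Its genes had 21813 reads or more per library, where even the −0.09 of Mir20b passed. By the exact test of edgeR 0 of the 6 passed, and 0 at an unadjusted p of 0.05. Mir93 lay at −0.01 and did not pass, while it was higher with total-count or DESeq2 scaling and lower with TMM factors over all genes. The 6 letters AAGUGC occur in both kinds of seed. Searched on the miRNA's own strand, they lie within the first 9 bases of 18 of 1501 mature sequences (1.20%) in RefSeq for the genes counted. The 18 genes held 20.5% ± 0.77 of the gene counts (SD, n = 2), and Mir302b, Mir302c and Mir302d supplied 6.81% of that in replicate 1 and 7.75% in replicate 2. The 3p arm of Mir302a was not searched, so its 9828 ± 1581 CPM (SD, n = 2) are in neither share. A match of letters is a description and not evidence of shared targets.

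The genes closest to Mir302a in level over the 2 libraries were named by distance in log2(CPM + 1). They were Mir369 (distance 0.15), Mir127 (0.16), Mir92-1 (0.28), Mir423 (0.30) and Mir149 (0.32). Mir369 had 9637 and 10963 CPM and Mir127 8546 and 9794 CPM, both on chromosome 12 and both higher in replicate 2. So was Mir423 on chromosome 11 (10658 and 11449 CPM), while Mir92-1 and Mir149 were not. The distance uses the levels in both libraries, so a like ratio is built into the choice. In the order of means Mir302a lay between Mir149 and Mir127, Mir302d between Mir541 and Mir652, and Mir302b between Mir23b and Mir181c. Mir302c lay between Mir543 and Mir28a, and Mir367 between Mir1969 and Mir499. In each of these 10 pairs the ranges of the member and its neighbour over the libraries overlapped.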

How the data were processed

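Small RNA from 2 pools of embryonic forebrain was counted per gene. The values the authors deposited are unnormalized read counts for each gene on either strand, on the strand of the gene and on the opposite strand, and 4 tallies of reads in no gene. Per the file headers and notes, the assembly was mm10 and the annotation M4; which aligner and counter were run is not given in the sources used here. Reads mapped to several places were tallied apart by the authors, so counts of genes with several loci are lower limits. The tallies were 62.0% and 63.0% of all reads and were left out of library sizes and tests. The gene-strand count was used, with symbols and positions from GENCODE M21 (1894 of 1973 identifiers matched) and sequences from RefSeq.

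TMM factors came from edgeR 4.0.16 in R 4.3.3 on genes whose mean count reached 10; the test and figures used scipy 1.17.1 and matplotlib 3.10.9 in Python 3.11.15. Adjusted p-values are Benjamini-Hochberg over 401 genes with a threshold of 0.05. The test was tested on simulated data. The simulated counts held counting error only, so they cannot show how the test behaves under the spread between these libraries. With 2 libraries in 1 group, no quasi-likelihood test was possible and p-values measure counting error only. Alternatives were other scalings (total, DESeq2 1.42.0 size factors), filters, strands, denominators, pseudocounts and the exact test of edgeR.

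The members and gene lists were chosen with earlier results of these data known. Genes named are the 5 members, the 2 highest of each list, genes sharing a seed with a member, the 5 nearest to Mir302a and the neighbours in level. Outside this rule, Mir335, Mir93, Mir106a, Mir106b, Mir20b, the counted Mir9 genes and the genes of other clusters were named after their values were seen. Listed genes that were not found by symbol were named too.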

Additional observations from a re-analysis of the deposited data

How the results depend on the processing

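Of 119 recomputed values for the members and the seed sums 93 were kept, 22 moved, 4 lost their call and 0 reversed. Levels, shares and strand percentages have no direction or call, so for them only the size was compared. Leaving out a replicate leaves the value of the other library, and all such values counted as kept. Member shares on either strand could not change, as no member had an opposite-strand read. A fall on either strand from 24764 to 23902 CPM counted as kept for the cluster. One from 341 to 329 CPM counted as moved for the miR-290 cluster. The 93 are therefore no measure of how firm the values are. Single genes of the other lists are not among the 119, and the call of Mir93 differed between scalings. The count of members called lower stayed at 4 under every scaling, filter and strand setting tried, TMM over all genes (chosen after seeing the data) included. The exception is the exact test of edgeR with the dispersion of these libraries, which called 0 members, also at an unadjusted p of 0.05, and ended the 4 calls. Run on the other lists after seeing the data, it called 0 of their 71 tested genes. Leaving out a replicate gave a cluster sum of 22290 to 27237 CPM, against 339 to 342 for the miR-290 cluster, 184776 to 192893 for the miR-17 seed and 39173 to 40795 for the miR-367-3p seed. With all reads as the denominator, the sums fell to 9277 CPM for the cluster, 128 for the miR-290 cluster, 70817 for the miR-17 seed and 15003 for the miR-367-3p seed. Without Mir335 in the denominator they were 29287, 403, 223386 and 47306, and on either strand the last 3 were 329, 182286 and 38600. Without genes of several loci the miR-367-3p seed summed to 28009 CPM. No paired analysis was possible because the samples form 1 group. With 30 and 42 reads, depth limits what can be said of the ratio of Mir367.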

Other observations

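The spread of levels inside the cluster was compared with that of other miRNA clusters in the same libraries. A cluster here is a run of miRNA genes of 1 strand with gaps of at most 10 kb, and those with at least 3 tested genes of a single locus were kept, 13 in number. The fold was taken between the highest and the lowest gene in use, meaning tested and of a single locus. It was 938 for miR-302/miR-367, the third of 13. It was 2727 for the run from Mir379 to Mir3072 and 1600 for that from Mir770 to Mir432, which had 31 and 11 genes in use. All 5 genes of miR-302/miR-367 were in use, but 11 of 107 from Gm22072 to Mir669h and 6 of 7 from Mir290a to Mir295. Folds over all genes of such clusters could be larger, so the rank holds for the genes in use only. The lowest, 4.26, was that of Mir182, Mir96 and Mir183.

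The ratios between the libraries were close together inside the cluster although the levels were not. They spanned 0.14 on the log2 scale, the fourth narrowest of the 13. The counting interval of Mir367 ran from −1.11 to 0.33, so how close its ratio lies to the others is not settled. A span can also widen with the number of genes in use. The narrowest were Mir25 to Mir106b (0.08), Mir363 to Mir106a (0.11) and Mir450b to Mir322 (0.11), with 3, 4 and 5 genes in use. The widest was Gm22072 to Mir669h (5.70, 11 genes in use), where Mir669f alone, with 4 and 165 reads, lay at −5.10. The median ratio of the miR-302/miR-367 cluster, −0.36, was the lowest of the 13. That of Mir341 to Mir370 on chromosome 12 came next at −0.29, and that of Mir429 to Mir200b was the highest at 0.29. These are descriptions with no test, and the clusters were named after their values were seen.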
